A study of Mus musculus with 9 samples.

Results

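The genes described here encode core proteins of the spliceosome and the RNA-binding proteins that steer it. They were taken by name from the mouse annotation as protein-coding genes whose symbols begin with Srsf and a digit, Hnrnp, Sf3a or Sf3b and a digit, Snrp or U2af. The rule matched 56 genes, and 55 of them had a row in the count tables, out of 20726 protein-coding genes and 32976 rows in all. Snrpn was not analysed here. The 55 genes comprised 11 Snrp proteins, 3 genes of the U2AF family, 3 SF3a and 6 SF3b subunits, 12 SR proteins and 20 heterogeneous nuclear ribonucleoproteins (hnRNPs).

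RNA was sequenced from CD8+ tumor-infiltrating T cells that bind a tetramer of the CT26 peptide GSW11, sorted from CT26.WT tumors, a colorectal carcinoma line of BALB/c origin grown under the skin. TetHighProg libraries held high avidity (tetramer-high) cells from progressing tumors, TetLowProg held low avidity (tetramer-low) cells from progressing tumors, and TetLowReg held low avidity cells from regressing tumors. The cells of every group were CD8+CD44+. Every mouse was wildtype and had received the PD-1 antibody RMP1-14 on days 3, 6 and 9 after implantation, so no group was untreated, and high avidity cells from regressing tumors were not among the groups. Each group had 3 libraries, numbered 1, 2 and 5 in TetHighProg, 6, 7 and 8 in TetLowReg, and 9, 10 and 12 in TetLowProg. The age of the mice is not given in the sources used here. The cells came from 3 regressing and 3 progressing tumors, the latter the source of both TetHighProg and TetLowProg, so libraries of these groups share tumors. The labels do not say which libraries belong together, and the tests treat them as independent. The labels do not tie a library to a mouse, so the p-values below measure the spread between these libraries.

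Splicing removes introns in steps that several particles carry out in turn. Most small nuclear ribonucleoproteins (snRNPs) join a small nuclear RNA to a ring of Sm proteins, U2AF marks the end of the intron, and the U2 snRNP with its SF3a and SF3b subcomplexes then engages the branch point. SR proteins bind exons and mostly favor the use of nearby splice sites, while hnRNPs coat nascent transcripts and often favor exon skipping. In T cells these proteins are best known for the switch between isoforms of CD45 (Ptprc) on activation, in which hnRNP L and hnRNP LL take part.

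The libraries differed widely in how many genes they held, in every group. A gene was counted as found in a library at 10 reads or more, and TetHighProg 1 and 2, TetLowReg 6 and TetLowProg 10 each held under 3000 such genes, while the other 5 libraries held 3181 to 8071. Gene counts per library ran from 16405306 to 36429515 and did not follow that split. Of 12 T cell markers, 10 to 12 were found in the 5 richer libraries and 3 to 7 in the other 4, and in TetHighProg 2 Cd3d, Cd8a and Trac were all at 0 counts. Markers of macrophages and dendritic cells took 5.59%, 4.04% and 6.09% of gene counts in TetLowReg 7, TetLowReg 8 and TetLowProg 12, and at most 0.154% in any other library. In those 3 libraries 5 to 7 of the 11 markers were found, as were 5 in TetLowProg 9, and B cell markers took 0.229% to 0.276%. Cd74, which antigen-presenting cells express strongly, had 562795 to 1627251 counts in the 3 libraries, against at most 37532 elsewhere. Lyz2 had 299515, 19392 and 18079 counts in TetLowReg 7, TetLowReg 8 and TetLowProg 12, while C1qa and C1qb had 0 in each and Csf1r had 9, 8 and 0. These markers do not settle which kind of cell the share came from. Markers of erythroid cells, of CD4 T cells, and of CT26 tumor and stroma each took at most 0.0372% in any library. Mitochondrially encoded genes took 44.5% of gene counts in TetLowReg 7, 14.2% in TetLowReg 8 and at most 6.07% elsewhere. The part of these markers, or of the mitochondrial share, in the splicing results was not tested. In bulk samples such as these, fewer cells of a type and less RNA per cell cannot be told apart.

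Splicing genes were found far more often than protein-coding genes in general, and in the same libraries. Of the 55 genes, 19, 13 and 36 were found in TetHighProg 1, 2 and 5, which is 34.5%, 23.6% and 65.5%, where 5.75%, 2.65% and 14.1% of all protein-coding genes were found. In TetLowReg 6, 7 and 8 the numbers were 10, 46 and 44, or 18.2%, 83.6% and 80.0%, against 3.40%, 34.9% and 31.5% of protein-coding genes. In TetLowProg 9, 10 and 12 they were 53, 20 and 46, or 96.4%, 36.4% and 83.6%, against 35.4%, 5.13% and 28.6%. TetHighProg averaged 22.7 ± 11.9 genes (SD, n = 3), TetLowReg 33.3 ± 20.2 and TetLowProg 39.7 ± 17.4. All 3 groups overlapped, since each held at least 1 library with 20 or fewer of the genes and at least 1 with 36 or more. With the 4 libraries of few genes left out, TetHighProg was represented by its replicate 5 alone, and TetLowReg exceeded it by 9 genes and TetLowProg by 13.5. Thinning every library to the depth of the smallest changed the number found by at most 1 gene.

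**Figure D1:**
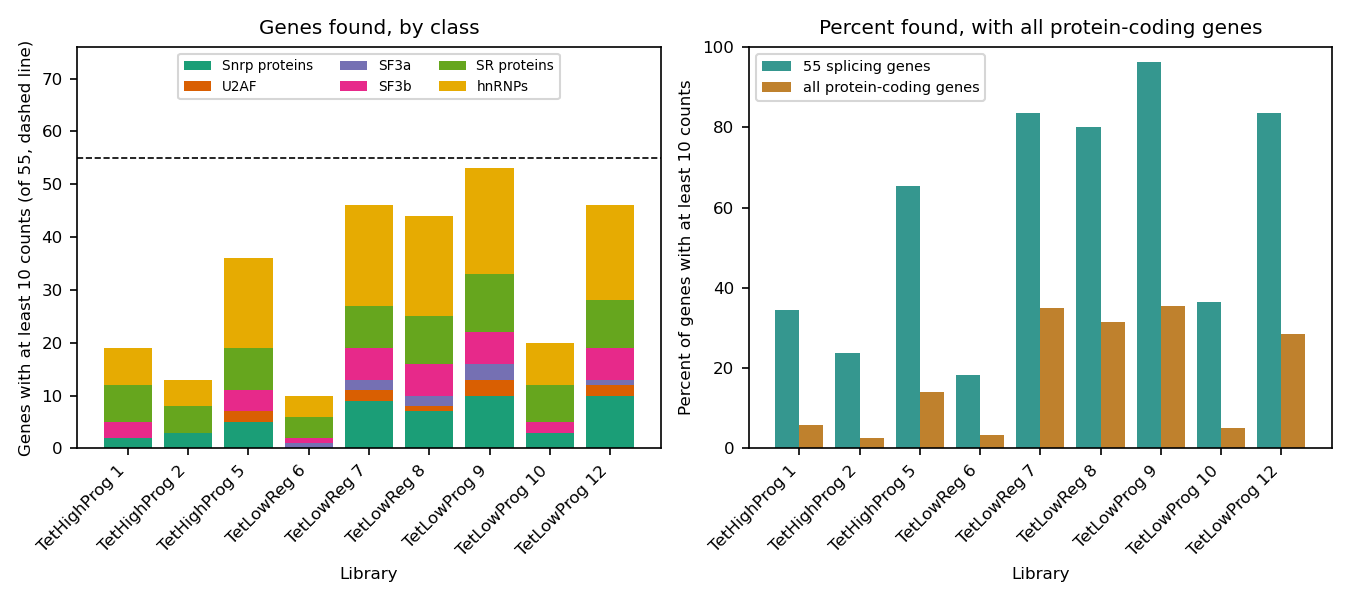
Left, number of the 55 splicing genes with at least 10 counts in each library (y axis, genes), stacked by class; right, the same as a percent beside the percent of all 20726 protein-coding genes. TetHighProg 1 and 2, TetLowReg 6 and TetLowProg 10 held 10 to 20 of the genes and the other 5 libraries 36 to 53.

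The share of all gene counts that fell on the 55 genes did not follow the number of genes found. It was 0.899%, 2.54% and 1.13% in TetHighProg 1, 2 and 5, the highest value belonging to the library with the fewest genes of its group. The TetLowReg libraries 6, 7 and 8 had 0.393%, 0.510% and 0.838%, all below every TetHighProg library. TetLowProg 9, 10 and 12 had 1.33%, 1.40% and 0.927%. The group means were 1.52% ± 0.889 (SD, n = 3), 0.580% ± 0.231 and 1.22% ± 0.255. When the mitochondrially encoded genes were taken out of the total, TetLowReg 7 and 8 moved to 0.919% and 0.976% and TetHighProg 1 to 0.950%, so these groups then overlapped. TetLowProg minus TetHighProg was -0.306 percentage points and turned to 0.203 without TetHighProg 2. In TetHighProg 2 only 3 genes, Srsf11, Srsf7 and Hnrnpa2b1, held 68.4% of the splicing counts, and in TetLowReg 6 the 3 leading genes, Srsf7, Hnrnpa2b1 and Sf3a3, held 83.3%. In TetLowProg 9 the 3 leading genes held 28.4%.

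**Figure D2:**
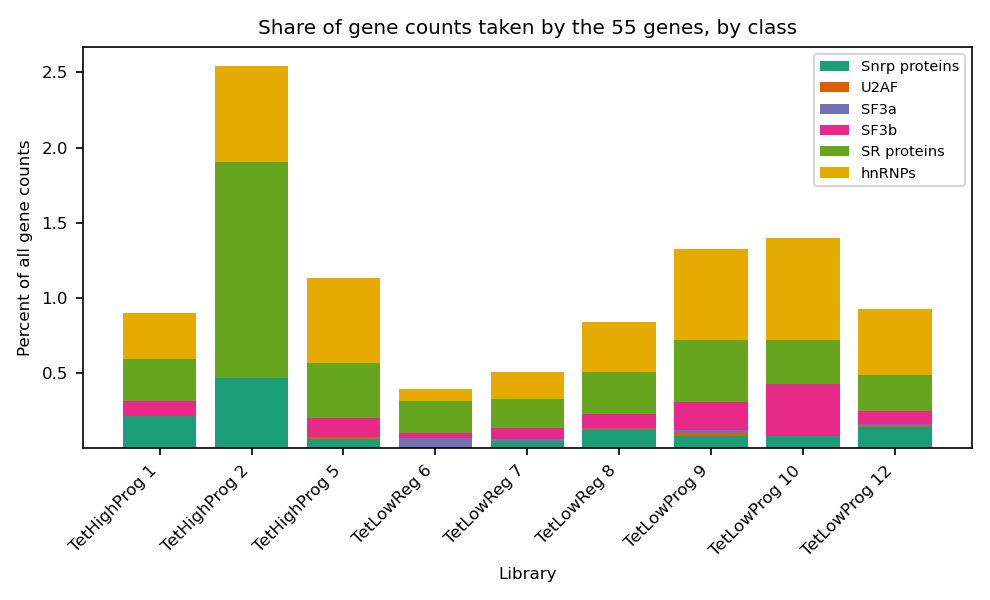
Percent of all gene counts (y axis) that fell on the 55 splicing genes in each library, stacked by class. TetHighProg 2 reaches 2.54% with SR proteins as 56.6% of it, and the 3 TetLowReg libraries lie at 0.393% to 0.838%.

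A small core was found in every library. Srsf3, Srsf7, Srsf10, Srsf11, Hnrnpa1, Hnrnpl and Hnrnpu had at least 10 counts in all 9 libraries, which is 12.7% of the 55 genes and compares with 0.796% of protein-coding genes. At the other end, Srsf19 had 0 counts in all 9 libraries. By counting error alone this allows a level of up to 0.0120 counts per 1000000 gene counts (CPM) over the pooled libraries. Sf3a2, Srsf4, Srsf12 and U2af1 reached 10 counts in 1 library each, and that library was TetLowProg 9 for all 4. TetLowProg 9 was also the library in which 25 of the 54 genes found anywhere had their highest CPM. For 33 of those 54 genes a single library held over 50% of the CPM summed over the 9 libraries. That was so for 82.0% of the protein-coding genes found in any library, and beside that share the splicing genes were spread over more libraries. Genes found in 7 or more libraries had a median exonic length of 7427 bases (n = 16) and those found in 4 or fewer had 4114 bases (n = 16). Spearman's rho between exonic length and the number of libraries was 0.31 over the 55 genes and 0.41 over the 20726 protein-coding genes, as a description over genes that share the same 9 libraries.

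Promoter windows of 4 genes are shown to set widely found genes beside narrowly found ones. Srsf7 and Srsf11 were in all 9 libraries, U2af1 was in a single library, and Sf3a3 was in every low avidity library but TetLowProg 10 and in no TetHighProg library. Each window is the 250 bases before the first start that RefSeq lists for the gene (mouse build GRCm38.p6), written 5′ to 3′ on the strand of the gene. Capitals mark matches on either strand to the GC box GGGCGG, the CCAAT box CCAAT, the TATA box TATAAA, the ETS motif CCGGAAGT, the E-box CACGTG or the NRF1 core GCATGCGC, none of which contains another.
Srsf7, chr17:80207306-80207555, minus strand: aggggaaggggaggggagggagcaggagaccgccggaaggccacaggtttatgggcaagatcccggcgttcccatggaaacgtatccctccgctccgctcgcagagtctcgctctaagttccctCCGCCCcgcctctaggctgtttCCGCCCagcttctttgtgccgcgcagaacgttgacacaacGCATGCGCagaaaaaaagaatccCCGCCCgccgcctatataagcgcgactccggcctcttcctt
Srsf11, chr3:158036607-158036856, minus strand: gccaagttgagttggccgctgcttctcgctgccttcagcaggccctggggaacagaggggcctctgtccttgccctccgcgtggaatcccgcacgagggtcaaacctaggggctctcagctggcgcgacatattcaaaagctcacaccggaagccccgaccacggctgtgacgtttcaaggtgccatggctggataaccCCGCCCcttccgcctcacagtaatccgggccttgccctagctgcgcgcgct
U2af1, chr17:31658765-31659014, minus strand: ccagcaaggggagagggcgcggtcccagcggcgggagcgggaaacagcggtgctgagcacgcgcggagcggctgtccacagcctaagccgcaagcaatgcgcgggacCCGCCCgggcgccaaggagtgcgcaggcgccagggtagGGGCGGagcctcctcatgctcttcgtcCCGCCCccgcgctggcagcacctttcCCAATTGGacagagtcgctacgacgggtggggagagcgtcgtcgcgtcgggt
Sf3a3, chr4:124714611-124714860, plus strand: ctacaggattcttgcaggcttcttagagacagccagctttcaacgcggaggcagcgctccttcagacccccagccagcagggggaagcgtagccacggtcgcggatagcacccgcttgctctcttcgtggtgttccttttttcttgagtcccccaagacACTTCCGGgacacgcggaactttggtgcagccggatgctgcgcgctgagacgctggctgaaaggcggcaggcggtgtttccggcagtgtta

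The window of Srsf7 held the GC box and the NRF1 core, that of Srsf11 the GC box, that of U2af1 the GC box and the CCAAT box, and that of Sf3a3 the ETS motif. Windows were matched for 47 of the 55 genes. The GC box was in 33 of these 47 (70.2%) and in 42.7% of the 17492 protein-coding genes with a window. The CCAAT box was in 44.7% and 36.3%, the ETS motif in 12.8% and 3.84%, the TATA box in 10.6% and 12.4%, the E-box in 6.38% and 6.64%, and the NRF1 core in 4.26% and 2.99%. The median window held 60.8% G and C and 19 CpG dinucleotides, against 55.2% and 10 for all genes. Within the splicing genes the GC box was in 12 of the 16 windows of genes found in 7 or more libraries and in 9 of the 12 windows of genes found in 4 or fewer, and both sets had a median near 19 CpG dinucleotides (19 and 19.5). A match says only that these letters are in the window.

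**Figure D3:**
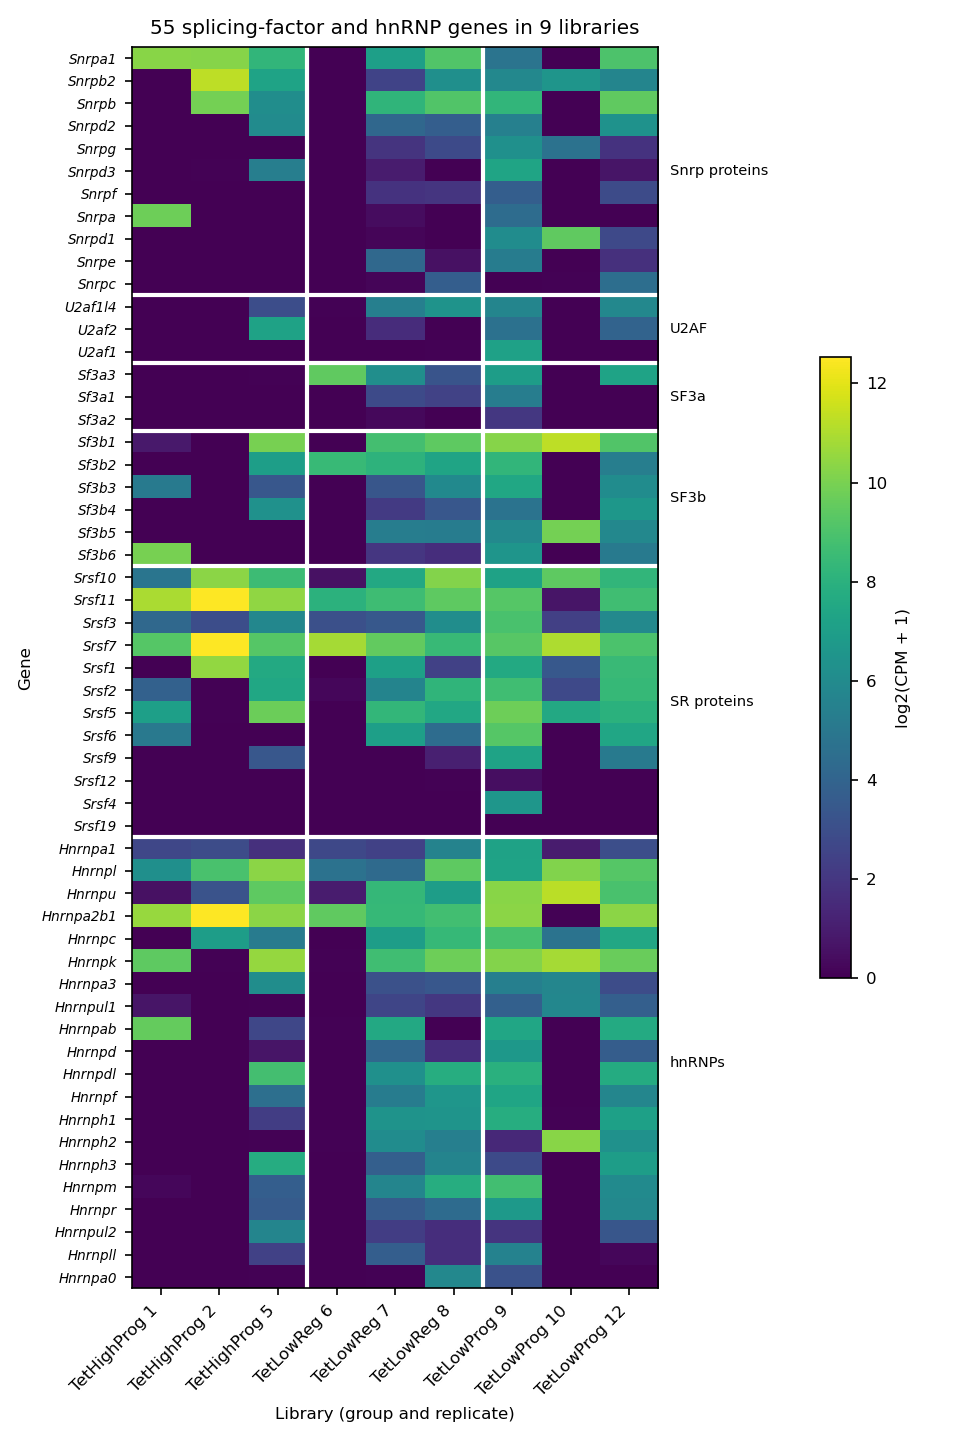
Level of each of the 55 splicing genes (rows, grouped by class) in each of the 9 libraries (columns) as log2(CPM + 1). Srsf7 is bright in every column, the TetLowReg 6 and TetHighProg 2 columns are dark for most genes, and the TetLowProg 9 column is filled for 53 of the 55 genes.

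The Sm proteins, 7 of which close into the ring around the snRNA, were mostly not found in the 3 high avidity libraries, TetLowReg 6 and TetLowProg 10. Of the 7 genes, 0, 1 and 3 were found in TetHighProg 1, 2 and 5, then 0, 6 and 4 in TetLowReg 6, 7 and 8, and 7, 2 and 7 in TetLowProg 9, 10 and 12. Complete sets were thus seen in TetLowProg 9 and 12 only. Snrpd1, Snrpe, Snrpf and Snrpg had 0 counts in all 3 TetHighProg libraries, which by counting error alone allows up to 0.0368 CPM over the group. That limit does not bound the level in the cells, since Snrpe also had 0 counts in TetLowProg 10 and 1344 in TetLowProg 9.
Snrpd1, a member of the ring, had 0, 4 and 0 counts in TetLowReg 6, 7 and 8 and 2414, 17576 and 186 in TetLowProg 9, 10 and 12. Every TetLowProg library therefore lay above all 6 others. Snrpg, another ring protein, had 0, 98 and 99 counts in TetLowReg and 2803, 649 and 82 in TetLowProg, so its low avidity groups overlapped. Snrpe had 0, 646 and 8 counts in TetLowReg and 1344, 0 and 72 in TetLowProg, with a library at 0 in each of the 3 groups. Snrpf shared 82.6% of its exonic bases with Ccdc38 and another annotated gene and the counts used took no account of strand. Tables of this kind count a read that overlaps several genes for none of them, so reads from the shared bases are left out of the level of Snrpf.

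Snrpb, which encodes the SmB ring protein, was the only ring gene found in more than 1 high avidity library. It stood at 0, 947 and 69.0 CPM in TetHighProg 1, 2 and 5, at 0, 294 and 566 CPM in TetLowReg 6, 7 and 8, and at 306, 0 and 711 CPM in TetLowProg 9, 10 and 12. The groups overlapped fully, each having 1 library at 0. Among proteins particular to the U2 snRNP, Snrpa1 (the A prime protein of U2) had 1250, 1230 and 300.3 CPM in TetHighProg, 0, 134 and 554 CPM in TetLowReg and 26.9, 0 and 528 CPM in TetLowProg. TetHighProg 1 and 2 were thus above every low avidity library, and TetHighProg 5 overlapped them. Snrpb2 (the B double-prime protein) had its highest level, 2498 CPM, in TetHighProg 2, and 0 CPM in TetHighProg 1 and TetLowReg 6. For the U1 proteins the pattern was patchier. Snrpa (the A protein of U1) had 29418 counts in TetHighProg 1, 756 in TetLowProg 9, 12 in TetLowReg 7 and 0 in the other 6 libraries, and Snrpc (the C protein) reached 10 counts in TetLowReg 8 (207 counts) and TetLowProg 12 (701 counts) alone.

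The U2AF heterodimer, whose large subunit binds the polypyrimidine tract and whose small subunit reads the AG at the end of the intron, was found whole in a single library. U2af1, the small subunit (chr17:31866036-31878236, GRCm39), had 5232 counts in TetLowProg 9, 1 count in TetLowReg 8 and in TetLowProg 12, and 0 in the other 6 libraries. U2af2, the large subunit, had 3314 counts in TetHighProg 5, 72 in TetLowReg 7, 904 in TetLowProg 9 and 463 in TetLowProg 12, and 0 in the other 5. Both subunits together passed 10 counts only in TetLowProg 9. U2af1l4, a paralog of the small subunit, was more widely found, with 0, 0 and 6.74 CPM in TetHighProg, 0.0454, 41.0 and 85.6 CPM in TetLowReg and 50.6, 0 and 57.0 CPM in TetLowProg. Each low avidity group had 2 libraries above all of TetHighProg and 1 at or near 0, and 25.4% of the exonic bases of U2af1l4 lie in Psenen as well.

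SF3a, which joins the branch point module of the U2 snRNP, was not found in any high avidity library. Sf3a1 and Sf3a2 had 0 counts in TetHighProg 1, 2 and 5. Sf3a3, encoded at chr4:124608569-124626253 (GRCm39), had 0, 0 and 1 count there, 15399, 2587 and 139 counts in TetLowReg 6, 7 and 8, and 4524, 0 and 4753 counts in TetLowProg 9, 10 and 12. All TetLowReg libraries were above all TetHighProg libraries, and TetLowProg overlapped because its replicate 10 was at 0. Sf3a1 had 0, 224 and 75 counts in TetLowReg and 1395, 0 and 0 in TetLowProg, and Sf3a2 passed 10 counts only in TetLowProg 9, with 111. The 3 subunits together were found only in TetLowProg 9.

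SF3b, the partner subcomplex, was found whole in TetLowReg 7 and 8 and TetLowProg 9 and 12. Of its 6 subunits, 3, 0 and 4 were found in TetHighProg 1, 2 and 5, with 1 in TetLowReg 6 and 2 in TetLowProg 10. Sf3b1, the largest subunit, which clamps the branch point helix, stood at 0.808, 0 and 1001.5 CPM in TetHighProg, 0, 445 and 693 CPM in TetLowReg and 1217, 2488 and 557 CPM in TetLowProg. High and near-zero libraries occurred in both TetHighProg and TetLowReg, while the 3 TetLowProg libraries were all at 557 CPM or more. Sf3b2 had 0, 0 and 127 CPM in TetHighProg and 350, 271 and 159 CPM in TetLowReg, which did not overlap, and 304, 0 and 39.9 CPM in TetLowProg. Sf3b5, a small subunit (chr10:12881087-12884927, GRCm39), had 1, 0 and 0 counts in TetHighProg, 0, 1424 and 607 in TetLowReg and 2146, 24533 and 1799 in TetLowProg. The lowest TetLowProg library was above the highest of both other groups.

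SR proteins included the gene with the highest mean level over the 9 libraries, Srsf7, and several of the most widely found genes. Srsf7, which binds exonic enhancers and also serves mRNA export (chr17:80507501-80514879, GRCm39), had 600.2, 5740 and 601 CPM in TetHighProg 1, 2 and 5, 1856, 722 and 349 CPM in TetLowReg 6, 7 and 8, and 626, 2038 and 498 CPM in TetLowProg 9, 10 and 12. The groups overlapped, and in each of them the highest value came from a library with few genes found. Per kilobase of exon Srsf7 averaged 237 CPM over the 9 libraries, ahead of Srsf11 at 147, Hnrnpa2b1 at 135 and Snrpa1 at 133. By the median over the 9 libraries Hnrnpa2b1 led instead, at 124.5 CPM per kilobase against 102.3 for Srsf7. The order among these genes is not resolved, since the levels of each spread over more than 10-fold between libraries.
Srsf11, an SR protein of the speckles (chr3:157716110-157742310, GRCm39), had 1959, 5898 and 1414 CPM in TetHighProg, 267, 391 and 678 CPM in TetLowReg and 590, 0.636 and 408 CPM in TetLowProg. Every TetHighProg library was above all 6 low avidity libraries, and the TetLowProg 10 level rested on 16 counts.

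Srsf10, an atypical SR protein that represses splicing when dephosphorylated, had 27.8, 1308 and 387 CPM in TetHighProg, 0.454, 187 and 1180 CPM in TetLowReg and 149, 694 and 301 CPM in TetLowProg. Its level varied within each group more than between them. Srsf3, the smallest of the classical SR proteins, was found in every library at between 4.14 CPM (TetLowProg 10) and 488 CPM (TetLowProg 9). The annotation names 1 pseudogene of Srsf3, and its part in this level was not tested. Srsf1, the founding SR protein, had 0, 1428 and 195 CPM in TetHighProg, 0, 140 and 4.33 CPM in TetLowReg and 196, 9.98 and 357 CPM in TetLowProg. Srsf2, which shares with Srsf1 the recognition of exonic enhancers, had 13.9, 0.0395 and 176 CPM, then 0.181, 49.2 and 293 CPM, then 406, 5.81 and 331 CPM, in the same order of groups. Neither separated the groups, and 67.6% of the exonic bases of Srsf2 lie in Mettl23 or Mfsd11 as well. Of the 12 SR genes, 7, 5, 4 and 7 were found in the libraries with few genes, TetHighProg 1, TetHighProg 2, TetLowReg 6 and TetLowProg 10.

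**Figure D4:**
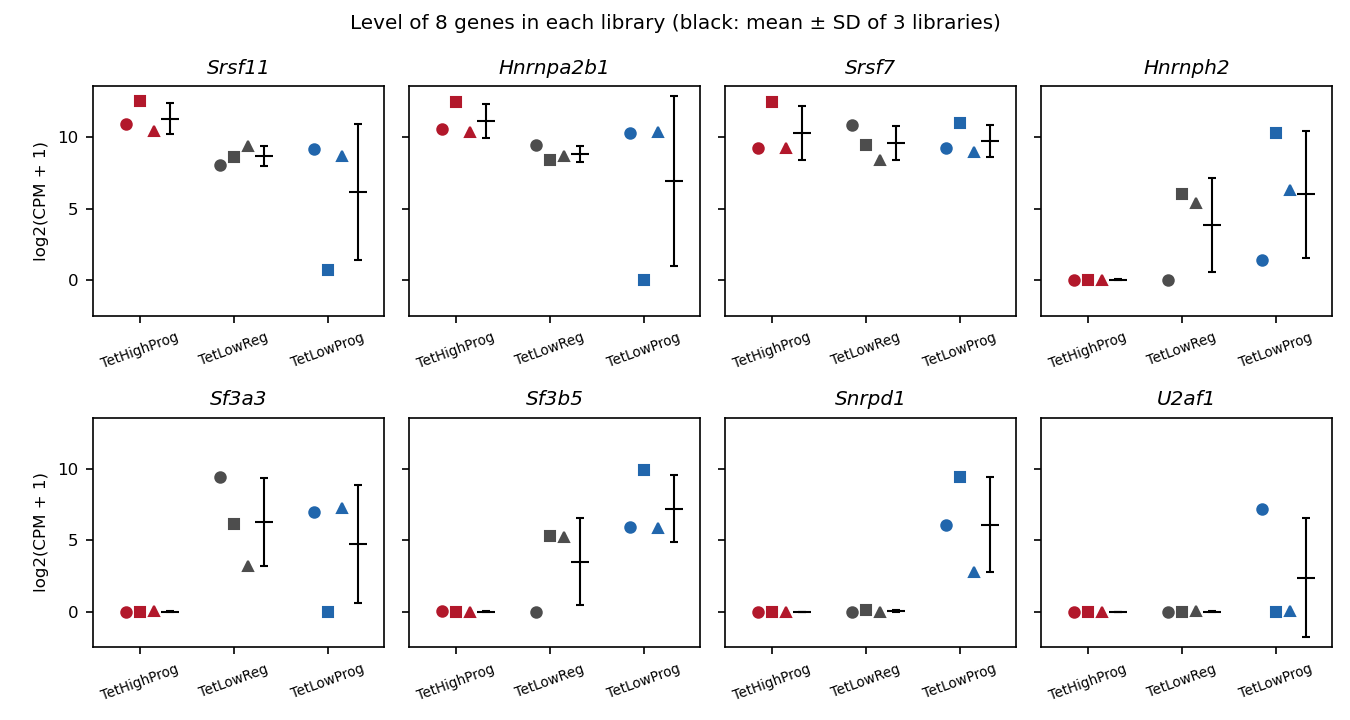
Level of 8 splicing genes as log2(CPM + 1) in each library (circle, square and triangle: the 3 libraries of a group in the order of their numbers), with the mean ± SD of each group in black (n = 3). For Srsf11 all 3 TetHighProg points lie above the other 6, for Snrpd1 and Sf3b5 all 3 TetLowProg points lie above the other 6, and Srsf7 overlaps throughout.

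The hnRNPs formed the largest class, and 7, 5 and 17 of the 20 were found in TetHighProg 1, 2 and 5, 4, 19 and 19 in TetLowReg 6, 7 and 8, and 20, 8 and 18 in TetLowProg 9, 10 and 12. Hnrnpa2b1, a core packaging protein (chr6:51435248-51448049, GRCm39), had 1536, 5740 and 1303 CPM in TetHighProg, 715, 336 and 420 CPM in TetLowReg and 1298, 0.0398 and 1319 CPM in TetLowProg. The TetLowReg libraries were all below the TetHighProg libraries, and TetLowProg spanned from 1 count in replicate 10 to the TetHighProg range. A share of 39.7% of its exonic bases lies in Cbx3 or Nfe2l3 as well. Hnrnpa1, a relative that often promotes exon skipping, was found in all 9 libraries but at low levels of 0.915 to 148 CPM. Reads that mapped to several places, 7.51% to 14.5% of the reads of a library, are outside the gene counts. Their part in the level of Hnrnpa1 was not tested.

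Hnrnpk, which binds C-rich RNA, had 687, 0.0395 and 1491 CPM in TetHighProg, 0.0454, 412 and 879 CPM in TetLowReg and 1169, 1841 and 808 CPM in TetLowProg. Hnrnpu, a nuclear scaffold protein, had 0.479, 8.37 and 677 CPM in TetHighProg, 0.953, 319 and 125 CPM in TetLowReg and 1252, 2425 and 490.2 CPM in TetLowProg. For Hnrnpu each TetLowProg library was above each TetLowReg library, whereas the TetHighProg replicate 5 reached into the TetLowProg range, and 34.1% of its exonic bases lie in Cox20 as well.
Hnrnpl, which binds CA repeats and silences the variable exons of CD45, had 74.4, 487 and 1307 CPM in TetHighProg, 25.3, 19.3 and 693 CPM in TetLowReg and 155, 1149 and 599 CPM in TetLowProg. Hnrnpll, the inducible relative that acts on the same exons in activated T cells, was much sparser, with 0, 0 and 99 counts in TetHighProg, 0, 446 and 34 in TetLowReg and 1653, 0 and 5 in TetLowProg. Neither separated any pair of groups.
Hnrnph2, an X-linked protein that binds G runs (chrX:133501878-133507810, GRCm39), had 1, 0 and 1 count in TetHighProg, 1, 2419 and 689 in TetLowReg and 62, 31475 and 2547 in TetLowProg. On the CPM scale both low avidity groups lay above TetHighProg in every library, although for TetLowReg 6 that rests on 1 count in a smaller library. Hnrnpul1, an hnRNP U relative, had 22, 0 and 1 counts in TetHighProg, 0, 184 and 51 in TetLowReg and 488, 1354 and 399 in TetLowProg, and each TetLowProg library was above the 6 others.

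TetLowReg and TetHighProg differ in both avidity and tumor outcome, and their comparison asks how the low avidity cells of regressing tumors differ from the high avidity cells of progressing ones. Sf3a3, Hnrnph2 and Sf3b2 were higher in every TetLowReg library than in any TetHighProg library, and Srsf11 and Hnrnpa2b1 were lower in every TetLowReg library. For Hnrnph2 the separation rests on 1 count in TetLowReg 6 set against 1 count in larger TetHighProg libraries. Over each group as a whole Sf3a3 had 18125 counts in TetLowReg and 1 in TetHighProg, which per gene count is 19710 times as many (95% interval from counting error, 3537 to 778530), and 4201 times without TetLowReg 6, which gave 15399 of the counts. Hnrnph2 had 3109 and 2 counts, or 1690 times as many (468 to 13964), and 731 times without TetLowReg 7. Snrpe, with 654 and 0 counts, was at least 237-fold higher, taking 3 counts over the group as the limit, but at least 5.65-fold without TetLowReg 7, which gave 646 of the counts. These intervals and limits cover counting error only, and reads from amplified cDNA without molecular identifiers are not independent molecules.
The edgeR quasi-likelihood test, with the 3 groups in 1 model and 47 of the 55 genes past its filter on low counts, called 0 of the 47 genes and 0% of all 5813 genes tested, where a call needed an adjusted p below 0.05 together with a log2 fold change beyond 2 in size. The smallest adjusted p of a splicing gene was 0.233. At an unadjusted p under 0.05 there were 2 higher, Sf3a3 (log2 fold change 13.78 ± 6.68, SE) and Snrpe (11.19 ± 5.58, SE), both with an adjusted p of 0.233 in edgeR, against 19% of all genes tested, and 0 lower, against 0.516%. Both genes had at most 1 count over TetHighProg. They passed the filter through low avidity libraries alone, so they could come out only as higher. The groups did not overlap for the 3 genes named above as higher (4.8% of all genes tested) and the 2 named as lower (0.998%), for each of which the 2-sided exact permutation p was 0.1, the smallest that 3 libraries against 3 allow. Srsf11 had a log2 fold change of -2.97 ± 2.51 (edgeR, adjusted p = 0.463) and Hnrnpa2b1 one of -2.89 ± 2.49 (edgeR, adjusted p = 0.471), which without TetHighProg 2 were -1.50 and -1.20. Fitted fold changes of genes with a group at or near 0 counts depend on edgeR's prior count of 0.125 and are no bound. The median log2 fold change was 0.47 over the 47 genes, with 26 above 0 and 21 below, and 4.82 over all genes tested. Both medians moved widely with the setting. They were 0.22 and 0.63 with a stricter filter (10 counts in every library of a group), 0.20 and 0.35 with edgeR on the 2 groups alone, 5.74 and 6.34 in limma-voom and 7.28 and 9.32 without TetHighProg 5, and the median of the splicing genes was -0.05 without TetLowReg 7 and -0.28 without TetLowReg 8.
Other tools made calls where edgeR made none. DESeq2 fitted to these 2 groups called 3 of the splicing genes, all higher (28.4% of all genes with an adjusted p), DESeq2 on the 3 groups called 6 (32.8%) and limma-voom with sample weights called 17 (41.5%). With an adjusted p for 33, 43 and 47 of the splicing genes, the shares called were 9.09%, 14.0% and 36.2%.

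The comparison of TetLowProg with TetHighProg holds tumor outcome fixed and sets low against high avidity cells. The same TetHighProg libraries enter it as in the previous comparison, so the results are not independent. Snrpd1, Snrpg, Sf3b5, Hnrnph2 and Hnrnpul1 were higher in every TetLowProg library, and Srsf11 was lower in every one. Snrpd1, with 20176 counts over the TetLowProg libraries and 0 over those of TetHighProg, was at least 5889-fold higher, and at least 1040.2-fold without TetLowProg 10, which gave 17576 of the counts. Snrpg, with 3534 and 0, was at least 1031.5-fold higher, and at least 350.3-fold without TetLowProg 9. Sf3b5 had 28478 counts and 1 count, 24937 times as many (95% interval from counting error, 4475 to 985010), and 4735 times without TetLowProg 10, which gave 24533 of the counts. Hnrnph2 had 34084 and 2 counts, or 14923 times as many (4131 to 123230), and 1566 times without TetLowProg 10, which gave 31475 of the counts. U2af1, below the edgeR filter, had 5233 counts over TetLowProg and 0 over TetHighProg. TetLowProg 9 gave 5232 of them, with 0 in TetLowProg 10 and 1 in TetLowProg 12, so its counting limit of 1527.5-fold rests on a single library. Here too the intervals and limits cover counting error only, not the spread between libraries.
In edgeR 0 of the 47 genes were called, as were 0% of all genes tested, with 0.193 as the smallest adjusted p among the splicing genes. At an unadjusted p under 0.05 there were 7 higher (24.8% of all genes tested) and 0 lower (0.55%). The 7 were Hnrnph2, Sf3a1, Sf3b5, Snrpd1, Snrpe, Snrpf and Snrpg, 4 of them ring proteins, and all 7 had at most 2 counts over the TetHighProg group. They passed the filter on low counts through low avidity libraries alone and could come out only as higher, so the tally by direction was partly set by the filter. Among them Snrpd1 had a log2 fold change of 15.72 ± 7.04 (SE, edgeR, adjusted p = 0.193) and Hnrnph2 one of 13.92 ± 6.23 (edgeR, adjusted p = 0.193). The 5 higher genes without overlap compare with 6.67% of all genes tested and the 1 lower gene, Srsf11 (log2 fold change -4.12 ± 2.65, edgeR adjusted p = 0.273), with 0.499%. The value of Srsf11 was -3.73 without TetLowProg 10, where it had 16 counts, -2.77 without TetHighProg 2 and -1.63 without the 4 libraries with few genes. The median log2 fold change was 1.85 over the 47 genes, with 32 above 0 and 15 below, and 5.40 over all genes tested. The order of these medians depended on the setting. The median of the splicing genes was the lower also with DESeq2 size factors in edgeR (2.90 against 6.32) and in DESeq2 on the 2 groups (2.95 against 5.29). The medians were 2.06 over the splicing genes and 1.06 over all genes with the stricter filter, 1.87 and 0.76 with edgeR on the 2 groups alone, 1.84 and 0.86 with no filter and 3.25 and 0.83 in DESeq2 on 3 groups, and they were 7.13 and 7.14 in limma-voom. DESeq2 on the 2 groups called 7 splicing genes (40.6% of all genes), DESeq2 on the 3 groups 10 (40.7%) and limma-voom 24 (49.9%), all of them higher in TetLowProg, which is 19.4%, 23.3% and 51.1% of the 36, 43 and 47 splicing genes with an adjusted p.

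TetLowProg and TetLowReg hold avidity fixed and differ in tumor outcome. Snrpd1, Sf3b5, Hnrnpu and Hnrnpul1 were higher in every TetLowProg library (2.77% of all genes tested) and no splicing gene was lower in every one (0.654%). For Snrpd1 the group totals were 20176 and 4 counts, and the log2 fold change was 11.79 ± 6.54 (SE, edgeR, adjusted p = 1). It was 8.27 without TetLowProg 10, which gave 17576 of the counts, and 15.76 without TetLowReg 7. Sf3b5 had a log2 fold change of 3.23 ± 4.25, Hnrnpul1 of 2.56 ± 4.25 and Hnrnpu of 2.37 ± 3.10, each smaller than its SE. Without TetLowProg 10 these were 0.25, 1.26 and 1.32, and without TetLowReg 7 they were 4.15, 3.94 and 4.28. The value of Sf3b5 turned negative without the 4 libraries with few genes found, as given in the closing section.
The edgeR test called 0 of the 47 genes and 0% of all genes, and at an unadjusted p under 0.05 it found 0 higher (0.43% of all genes tested) and 0 lower (0.499%). DESeq2 called 1 splicing gene, Snrpd1, both on the 2 groups (0.21% of all genes) and on the 3 groups (1.22%), and limma-voom called 0 (0% of all genes). The median log2 fold change was 0.84 over the 47 genes, with 33 above 0 and 14 below, and 0.35 over all genes tested. Without TetLowProg 9 the medians were 0.30 and -0.65, and with no filter 1.04 and -0.96. With library size alone as the scaling, the median over all genes moved to 1.23 and that over the splicing genes to 1.60, with 41 above 0 and 6 below, so the count of genes above 0 depends on the scaling. The same scaling moved the medians against TetHighProg to 4.23 over all genes and 0.14 over the splicing genes for TetLowReg, and to 5.74 and 2.13 for TetLowProg.

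**Figure D5:**
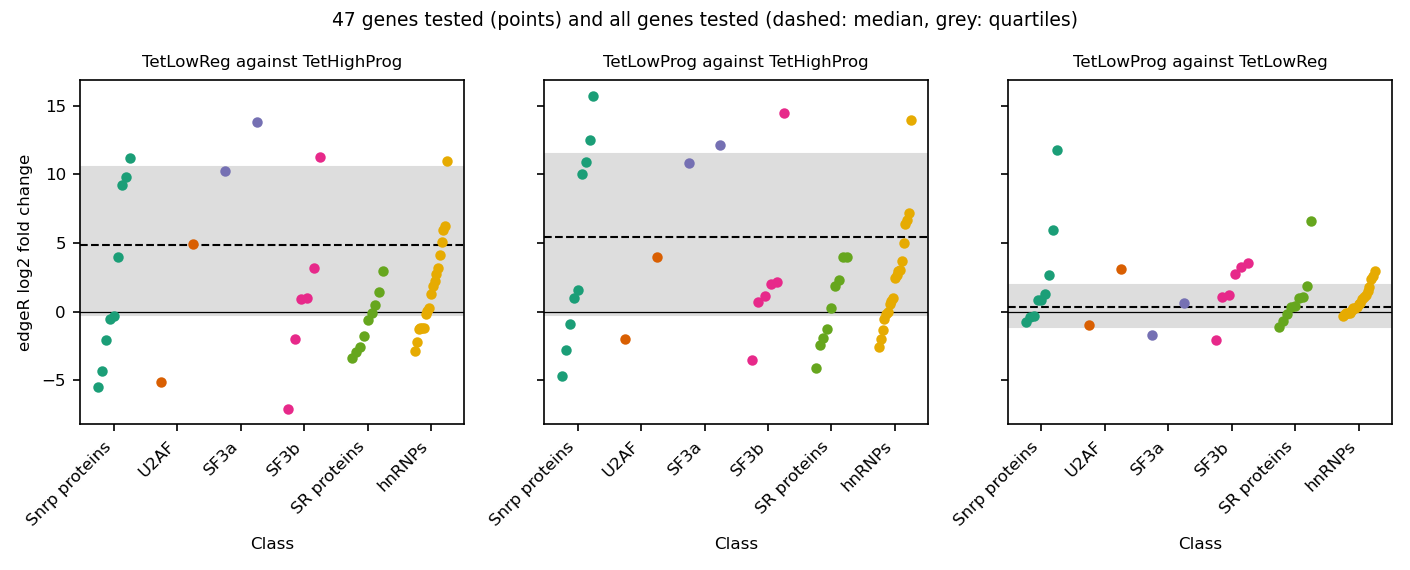
Log2 fold change in edgeR (y axis) of the 47 splicing genes tested, as points by class, in the 3 comparisons, with the median (dashed) and quartiles (grey) over all 5813 genes tested. In both comparisons with TetHighProg most splicing genes lie below the median of all genes, 4.82 and 5.40, an order that turned for TetLowProg with a stricter filter (2.06 against 1.06), and in TetLowProg against TetLowReg they spread around 0.84.

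Other parts of the splicing machinery were covered by 6 further lists. Over their 122 genes for particle proteins, LSm proteins, the Prp19 complex and catalytic step proteins, the exon junction complex, SR-related proteins with their kinases, and other RNA-binding regulators, 27.9%, 12.3% and 53.3% were found in TetHighProg 1, 2 and 5. The share was 23.0%, 93.4% and 78.7% in TetLowReg 6, 7 and 8, and 91.8%, 22.1% and 89.3% in TetLowProg 9, 10 and 12. Of the 109 genes tested, edgeR called 0 in each of the 3 comparisons. At an unadjusted p under 0.05, 15 were higher in TetLowReg than in TetHighProg, 19 were higher in TetLowProg than in TetHighProg, 0 were higher in TetLowProg than in TetLowReg, and 0 were lower in any comparison. The median log2 fold change over the 109 genes was 1.93, 2.07 and 0.41 in the 3 comparisons. Of all 5813 genes tested, 19% and 24.8% were higher in the same way against TetHighProg. Here too, genes at or near 0 counts in TetHighProg passed the filter through low avidity libraries and could come out only as higher. By list, the 15 and 19 were 5 and 7 of 26 tested particle proteins, 1 and 2 of 8 LSm proteins, 4 and 6 of 20 Prp19 and catalytic step proteins, 0 and 1 of 8 exon junction proteins, 0 and 0 of 11 SR-related proteins and kinases, and 5 and 3 of 36 other regulators. Median log2 fold changes against TetHighProg ran from -0.96 for SR-related proteins and kinases to 7.71 for the Prp19 and catalytic step proteins in TetLowReg, and from -1.20 to 8.36 for the same lists in TetLowProg. Those extremes stand on either side of the median over all genes, 4.82 and 5.40.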

How the data were processed

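RNA was measured by Smart-seq2 in 9 libraries, and the authors deposited raw read counts per gene, made by alignment to GRCm39 with STAR 2.7.6a. The submitters' processing notes also name featureCounts, while the layout of the deposited count tables is that of STAR, and the annotation release is not given in the sources used here. The unstranded counts were used, since 50.2% to 50.8% of stranded reads fell on a single strand in each library, and 4 summary lines per table were left out. Of 32976 rows, 28645 were matched to GENCODE M39 (GRCm39), which gave symbols, coordinates and exonic lengths. Depth was 16405306 to 36429515 gene counts per library.

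Groups were compared with edgeR 4.0.16 (TMM, default filter, quasi-likelihood test, 3 groups in 1 model) in R 4.3.3, with Benjamini-Hochberg adjustment over all genes tested, and SE was taken as the absolute log2 fold change over the root of F. DESeq2 1.42.0 and limma 3.58.1 were alternatives, with other scalings and filters and each library left out in turn. edgeR, DESeq2 on 2 groups and limma were tested on simulated data for TetLowReg against TetHighProg only. With a small spread each recovered the raised genes, but at the spread of these libraries edgeR and limma recovered almost none and DESeq2 made more false calls than true ones. For that comparison the absence of edgeR calls therefore does not show that a gene did not differ. The other comparisons and DESeq2 on 3 groups were not simulated. Single genes also had exact permutation tests on log2(CPM + 1). CPM is counts per 1000000 gene counts. Promoter windows are from RefSeq. The genes, lists, thresholds and tests were chosen with earlier results of these data known. Named genes are the 3 of each class with the highest mean CPM, those found in the most libraries, per comparison the 3 smallest unadjusted p under 0.05 in each direction and up to 5 without overlap, Hnrnpll, U2af1, U2af2, Sf3b1, Srsf1 and Srsf2, and any gene found nowhere. Others were named after their values were seen. Figures were drawn with matplotlib 3.10.9 in Python 3.11.15.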

Additional observations from a re-analysis of the deposited data

How the results depend on the processing

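In edgeR 0 splicing genes were called in all 3 comparisons under each scaling and filter, on 2 groups alone, without mitochondrially encoded genes, with no threshold on the fold change, and without each library in turn (0 to 0). Against TetHighProg, DESeq2 on 3 groups called 6 in TetLowReg and 10 in TetLowProg, beside 32.8% and 40.7% of all genes. DESeq2 on 2 groups called 3 and 7 (28.4% and 40.6% of all genes), and limma-voom 17 and 24 (41.5% and 49.9%). Between TetLowProg and TetLowReg both DESeq2 fits called 1, beside 0.21% of all genes on 2 groups and 1.22% on 3 groups. The cause of these differences between tools was not tested. The difference in genes found ranged from 4.33 to 22.3 for TetLowReg against TetHighProg, from 10.3 to 26.8 for TetLowProg against TetHighProg and from -5.33 to 16.2 for TetLowProg against TetLowReg when each library was left out. The last, 6.33 with all libraries, turned negative without TetLowReg replicate 6 (-5.33) and without TetLowProg replicate 9 (-0.333). The difference in share of counts ranged from -1.26 to -0.436, from -0.619 to 0.203 and from 0.544 to 0.784 percentage points, and the TetLowProg against TetHighProg value of -0.306 turned positive without TetHighProg replicate 2 (0.203). Without the 4 libraries with few genes found, an alternative chosen after seeing the data that leaves TetHighProg with 1 library assumed to vary like the others, edgeR called 0 and the log2 fold change of Sf3b5 between TetLowProg and TetLowReg reversed to -0.21. The TetLowReg against TetHighProg log2 fold change of Sf3b2 ranged from 2.67 to 16.19 without each library, the highest without TetHighProg replicate 5. No paired analysis was possible because the groups share no replicate numbers and the labels match no libraries by tumor, although TetHighProg and TetLowProg came from the same 3 progressing tumors.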
